A study of Homo sapiens with 6 samples.

Results

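The D-type cyclins, their kinases CDK4 and CDK6, the retinoblastoma gene RB1 and the inhibitors CDKN2A, CDKN2B, CDKN2C and CDKN1B were examined in the line SU-DHL-2. Its cells had been kept for 72 h with 200 pg/ml IL-17A (3 samples) or without IL-17A (3 samples, controls). SU-DHL-2 is an established cell line from a diffuse large B-cell lymphoma (DLBCL), and IL-17A is a cytokine secreted mainly by Th17 cells. Each sample was hybridised to 1 single-colour whole-genome array. The 10 genes were chosen from the 19740 named genes by their role in the pathway, and the set was built around CCND2 because its weak signal was higher with IL-17A on these arrays. CCND2 was thus selected on this comparison, and CDKN1B was named by the study from the same arrays, so both are described without a test. The other 8 genes were tested. All 10 genes had a probe, 12 probes in all of 34127 on the array, and all 12 passed the filter on dim probes, which asks for detection on at least 3 of the 6 arrays. The CCND2 probe passed it through the 3 IL-17A arrays alone, and the other 11 were detected on all 6.

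D-type cyclins carry growth signals into the cell cycle. They bind CDK4 or CDK6, and the active kinase phosphorylates RB1, which then releases the E2F factors that switch on genes for DNA replication. The INK4 inhibitors, encoded by CDKN2A, CDKN2B, CDKN2C and CDKN2D, bind CDK4 and CDK6 and keep the cyclin off, whereas p27, encoded by CDKN1B, binds cyclin-CDK complexes and mainly restrains CDK2. B cells depend largely on cyclin D2 and cyclin D3, and CDKN2A is often deleted in aggressive lymphomas.

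All values are log2 signals after quantile normalisation, given per array in the order of replicates 1, 2 and 3. Between 23564 and 24076 probes were detected per array, the arrays correlated at r = 0.993 to 0.997 across probes, and none of the member spots was saturated. Across the 14739 genes tested, the median difference between IL-17A and control was 0.0034 on the log2 scale, and 7.86% of genes had an adjusted p under 0.05, 4.37% higher and 3.49% lower with IL-17A. The labels do not say whether the samples were separate cultures, so the p-values measure the spread between these samples, which may be technical. The 3 controls and IL-17A replicate 1 shared a scan, and IL-17A replicates 2 and 3 shared another. All 14 B-cell markers were detected on all 6 arrays, among them CD22, CD74, CD79A, CD79B, MS4A1, PTPRC, EBF1, BCL6, IRF4, PRDM1, SPIB, PAX5 and POU2AF1. Their brightest gene was POU2AF1, a B-cell coactivator, at 14.73 with IL-17A and 14.54 in controls. PRDM1, which drives plasma cell differentiation, rose by 0.38 (adjusted p = 0.0328) and was the 1 B-cell marker of 14 to pass the adjusted threshold. Of the 14, 8 had an unadjusted p under 0.05, which 31.7% of all genes tested had as well. Some markers of other cells were also detected. CD3G was the brightest of the T and NK cell list, at 6.75 with IL-17A, CD14 of the monocyte list, at 5.04, COL1A1 of the mesenchymal list, at 3.71, and PECAM1 of the endothelial list, at 7.33. CD3E, named after its values were seen, fell by 0.46, with 2.78 with IL-17A and 3.24 in controls (adjusted p = 0.0400). It was the 1 of 9 tested T and NK cell genes to pass, and of these 5 were higher and 4 lower. CD2, also named after its values were seen, rose by 0.51 (adjusted p = 0.0539). Both genes were dim, as the lowest signal well above background was 1.86 to 2.24 per array. The summed signals of that list were 8.18 to 8.27 with IL-17A and 8.16 to 8.31 in controls. Of the monocyte list, 5 of 9 measured genes were detected on no array, and its summed log2 signal was 5.92 to 6.04 with IL-17A and 6.19 to 6.25 in controls. Of the endothelial list, 7 of 8 genes were detected, 6 of these 7 were lower with IL-17A and none passed the adjusted threshold, with summed signals of 8.38 to 8.66 and 8.50 to 8.78. The study describes these samples as SU-DHL-2 cells with or without IL-17A and names no other cell type in them. The source of these marker signals was not tested. In RNA from whole cultures, fewer cells expressing a gene and less RNA per cell cannot be told apart.

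Among the D-type cyclins, CCND2 was well above background on the IL-17A arrays alone, CCND3 on all 6 arrays, and CCND1 was dim but detected in both groups. Cyclin D2, encoded by CCND2, is the form induced when B cells are activated. Its probe, a single spot per array, had log2 signals of 2.88, 2.82 and 2.80 with IL-17A and of 0, 0.46 and 0 in controls, where 0 is the lowest value allowed. The groups did not overlap, and the spot was well above background on 3 of 3 IL-17A arrays and 0 of 3 control arrays. With IL-17A its signal was 1.79-fold higher when computed against the lowest signal that was well above background on each control array. This value depends on that floor and on the background-subtracted intensities used here. The difference as measured, 2.68 on the log2 scale, rests on control values that were not well above background. It was smaller in the authors' own log2 table, at 0.63, and with normexp background correction and an offset of 50, at 0.13. Both lie below 0.84, which is 1.79-fold on the same scale, so 1.79-fold is not a minimum over all processing.

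The scanner values behind this spot were small. Its background-subtracted intensity was 7.12, 6.93 and 6.73 with IL-17A, each with an error of 1.14 to 1.20 given by the extraction software, and 0.929, 1.34 and 0.938 in controls, with errors of 0.927, 0.932 and 0.935. Before subtraction the median brightness of the spot was 25, 25.5 and 23.5 with IL-17A against a local background of 13, 12 and 12.5. In controls it was 17, 19 and 18 against 12, 13 and 13. The spot thus stood 11 to 13.5 units above its surroundings with IL-17A and 5 to 6 in controls. Each array had 145 to 151 negative control spots, which match no human transcript, after spots marked non-uniform or as population outliers were left out. The median excess of the spots kept over the local background was 2.5 to 3 units. None of the negative control spots kept reached the CCND2 spot on any IL-17A array, and the marked spots were not compared. On the control arrays 3 of 146, 3 of 148 and 14 of 145 did. As CCND2 was chosen for its higher signal with IL-17A, these counts describe the spot and are not a test. The higher signal was present on all 3 IL-17A arrays, also on replicate 1, which was scanned together with the controls.

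**Figure D1:**
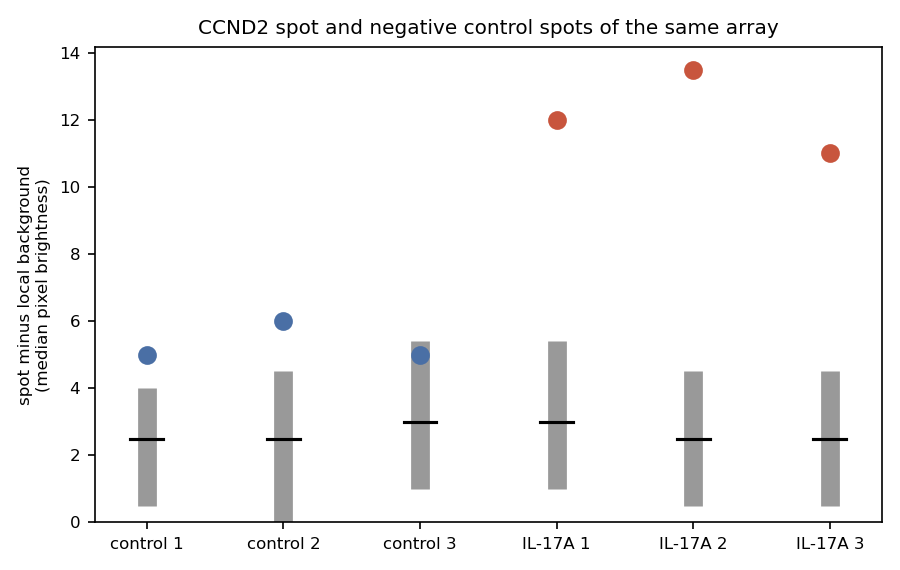
Excess of the CCND2 spot over its local background on each array (points, median pixel brightness, linear axis), with the median (line) and the 5th to 95th percentile (grey bar) of the negative control spots of the same array. Spots marked non-uniform or as population outliers are left out. The IL-17A points lie at 11 to 13.5, above every negative control spot kept. The control points lie at 5 or 6, at the upper end of these spots.

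CCND3 encodes cyclin D3, the form that germinal centre B cells rely on. Its log2 signal was 9.28, 8.95 and 9.15 with IL-17A and 9.44, 9.32 and 9.25 in controls. The highest IL-17A array lay within the range of the controls, so the groups overlapped. The difference was -0.21 (SE 0.10, 95% interval -0.45 to 0.03, adjusted p = 0.209), which did not pass the test, and it was -0.12 without IL-17A replicate 2 and -0.06 once the scan was a block. CCND1 encodes cyclin D1, which is little used by normal B cells. Its probe, spotted 10 times per array, gave 3.52 to 3.68 with IL-17A and 3.39 to 3.76 in controls, a difference of 0.09 (95% interval -0.18 to 0.36, adjusted p = 0.610). The spots of this probe on 1 array differed by an SD of 0.10 to 0.40 on the log2 scale, beside an SD between arrays of 0.08 with IL-17A and 0.20 in controls.

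The kinases CDK4 and CDK6 differed in opposite directions. CDK4 was lower with IL-17A, at 11.46, 11.31 and 11.37 against 11.76, 11.66 and 11.61 in controls, with every IL-17A array below every control array. The fall was 1.23-fold, a difference of -0.30 (SE 0.06, 95% interval -0.45 to -0.15, adjusted p = 0.0463). CDK6 had log2 signals of 12.92, 12.92 and 12.86 with IL-17A and 12.69, 12.64 and 12.74 in controls, again without overlap. Its difference was 0.21 (SE 0.04, 95% interval 0.10 to 0.32, unadjusted p = 0.0042, adjusted p = 0.0520), which narrowly missed the threshold. Groups that do not overlap were common on these arrays, at 40.6% of all genes tested. The CDK4 call was lost when any 1 array was left out (adjusted p = 0.0579 to 0.160). With the scan as a block the difference was -0.22 for CDK4 (adjusted p = 0.188) and 0.22 for CDK6 (adjusted p = 0.154).

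CDK6 can also be set against CDK4 within each array, which removes a uniform scaling between arrays but not differences that depend on brightness. The CDK6 spot exceeded the CDK4 spot by 1.43, 1.60 and 1.47 log2 units with IL-17A and by 0.94, 0.98 and 1.14 in controls. The means differed by 0.48, with an SD of 0.09 with IL-17A and 0.10 in controls (n = 3 each). The groups did not overlap. This quantity was chosen after the values of both genes were seen and gets no test. CDK4 and CDK6 had the lowest and the highest difference of the 8 tested members, so a gap follows from the choice. The quantity does not show which of the signals changed. Nor does it show which transcript is the more abundant, since the spots differ in how they bind.

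**Figure D2:**
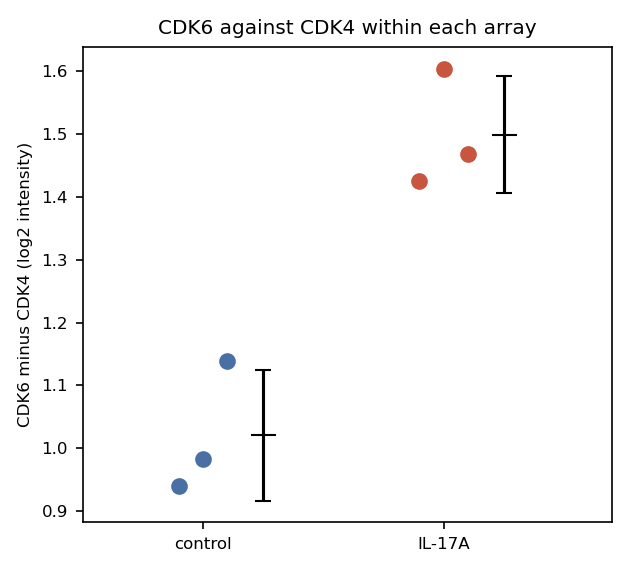
Difference of the CDK6 and CDK4 log2 intensities within each array before normalisation (points), with mean and SD (black, n = 3). The IL-17A arrays lie at 1.43 to 1.60 and the controls at 0.94 to 1.14.

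The promoters of both kinases are shown because these were the tested members whose groups did not overlap. The promoter table used, taken from RefSeq (GRCh38.p14), has windows from 250 bases before to 50 bases after a start site, with 14 windows for 8 of the 10 genes. Windows of CCND1 and CCND2 were not analysed here. Capitals mark CACGTG, the E-box core that MYC family proteins bind, which reads the same on both strands. CDK4, a known MYC target, has 1 window (chr12:57752261-57752560, minus strand), and the upstream one of the windows of CDK6 (chr7:92836524-92836823, minus strand) is printed, both 5′ to 3′.
CDK4: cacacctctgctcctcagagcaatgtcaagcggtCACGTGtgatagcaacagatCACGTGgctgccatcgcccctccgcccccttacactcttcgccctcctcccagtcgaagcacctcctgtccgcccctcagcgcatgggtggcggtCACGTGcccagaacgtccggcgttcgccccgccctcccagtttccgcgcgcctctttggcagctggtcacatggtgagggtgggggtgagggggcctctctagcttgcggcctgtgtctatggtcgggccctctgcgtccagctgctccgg
CDK6: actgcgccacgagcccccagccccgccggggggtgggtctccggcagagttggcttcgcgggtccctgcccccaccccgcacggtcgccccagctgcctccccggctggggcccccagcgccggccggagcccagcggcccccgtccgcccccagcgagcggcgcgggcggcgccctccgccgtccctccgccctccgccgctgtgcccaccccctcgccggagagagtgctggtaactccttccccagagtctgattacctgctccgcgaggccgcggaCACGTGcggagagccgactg
The CDK4 window holds 3 copies, and the CDK6 window 1, near its 3′ end. Of 35116 promoter windows, 7.26% hold at least 1 copy and 33 windows (0.094%) hold at least 3. The other CDK6 window has none, and of the other members only CDKN2C has any, with 1 copy in each of 2 of its 3 windows. GGGCGG, the GC box, searched on both strands, occurs 3 times in the CDK4 window and 3 times in the upstream CDK6 window, as in 15.8% of all windows with at least 3. These matches are a description of the letters and say nothing of which factors were bound.

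RB1, the substrate of both kinases, was bright and nearly level. Its probe, spotted 10 times per array, gave 11.79 to 11.87 with IL-17A and 11.68 to 11.84 in controls, and the spots within an array differed by an SD of only 0.03 to 0.05. The difference was 0.07 (95% interval -0.06 to 0.20, adjusted p = 0.420), with overlapping groups.

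The INK4 genes among the members did not pass the test. CDKN2A, which encodes p16 and p14ARF, was well above background on every array at both of its probes. The brighter probe gave 13.31 to 13.42 with IL-17A and 13.27 to 13.33 in controls, a difference of 0.05 (95% interval -0.06 to 0.16, adjusted p = 0.454). The dimmer probe, annotated to another transcript of the gene, gave a difference of -0.02 (95% interval -0.19 to 0.15, adjusted p = 0.876), and both signs turned under some of the alternative settings. CDKN2C encodes p18, an INK4 protein needed in plasma cell differentiation. It stood at 12.13 to 12.30 with IL-17A and 12.16 to 12.21 in controls, a difference of 0.02 (95% interval -0.11 to 0.16, adjusted p = 0.801). CDKN2B, which encodes p15, was dim and uneven, at 3.63 to 4.34 against 3.82 to 4.58 in controls, and its interval was the widest of the 8, from -0.96 to 0.37 (difference -0.29, adjusted p = 0.491).

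The chromosome 9p21 neighbours of CDKN2A and CDKN2B gave a view of the same region. MTAP, the methionine salvage enzyme often lost together with CDKN2A, was clearly detected at 10.51 ± 0.04 with IL-17A and 10.53 ± 0.04 in controls (SD, n = 3 each, adjusted p = 0.791). FOCAD was at 9.14 and 8.95 (adjusted p = 0.111) and KLHL9, an adaptor of a ubiquitin ligase, at 8.40 and 8.25 (adjusted p = 0.165). DMRTA1 and ELAVL2, the other 2 of the 5 neighbours, did not reach the detection filter.

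CDKN1B, which encodes p27, was higher with IL-17A at both of its probes. The brighter probe, spotted 10 times per array, gave 10.04, 10.11 and 10.08 with IL-17A and 9.72, 9.80 and 9.93 in controls. The groups did not overlap, the means differed by 0.26 (1.20-fold), and the spots within an array varied by an SD of 0.04 to 0.06. The dimmer probe gave 5.41, 5.44 and 5.63 with IL-17A against 4.35, 4.71 and 5.22 in controls, a difference of 0.73 (1.66-fold), again without overlap. The size of the difference thus depended on the probe, and at both probes control replicate 3 lay closest to the IL-17A arrays.

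**Figure D3:**
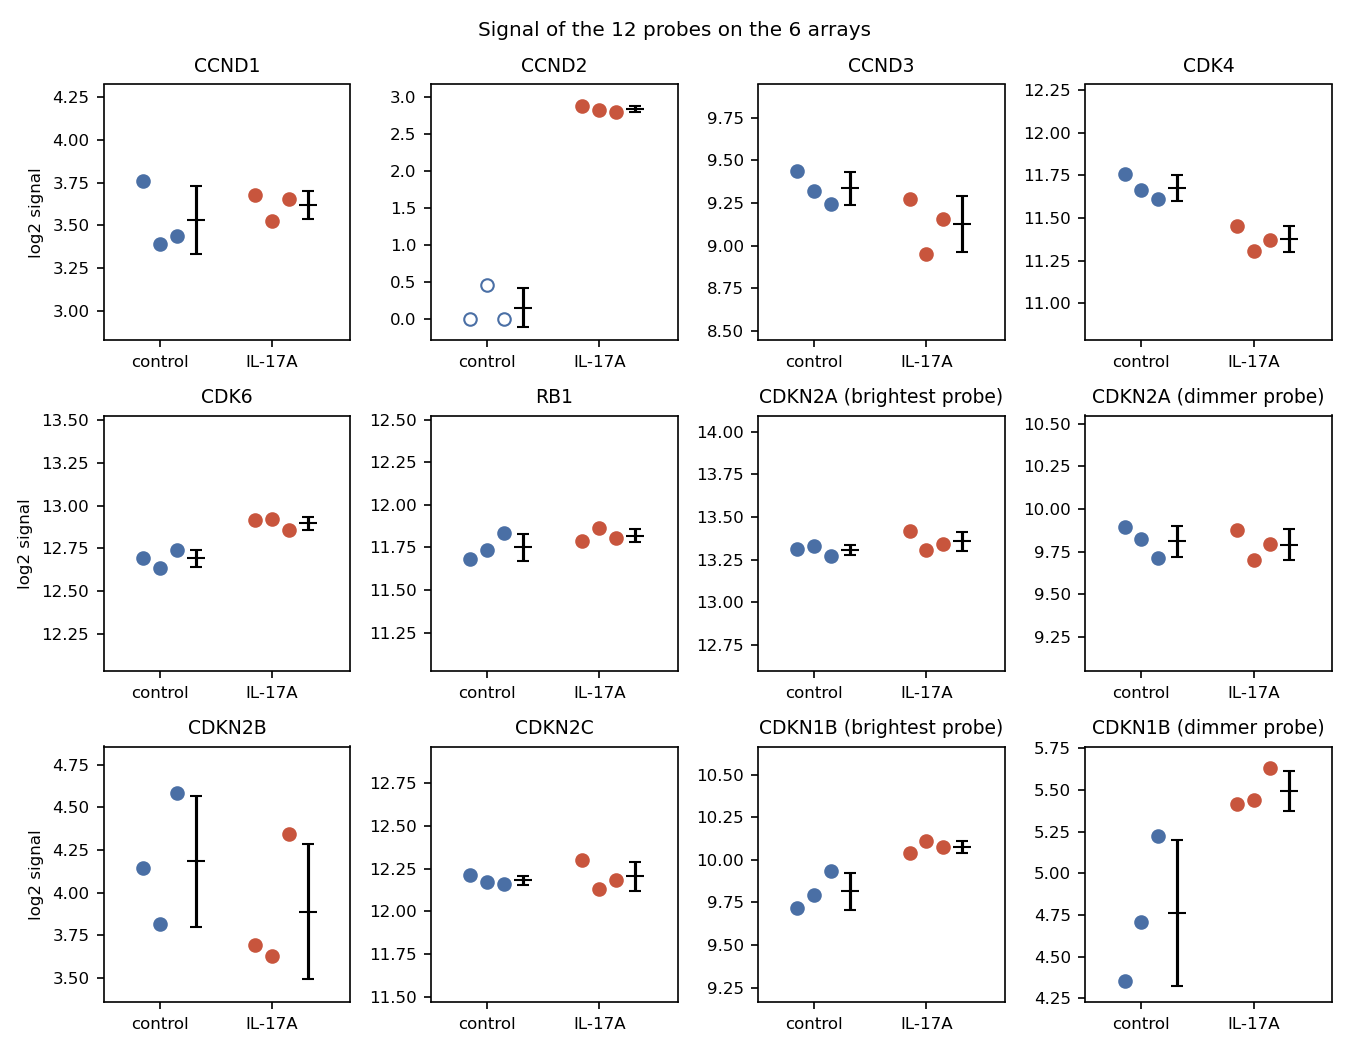
Normalised log2 signal of the 12 probes on each array (points, blue control, red IL-17A, replicates 1 to 3 from left to right, open where the spot was not well above background), with mean and SD (black, n = 3). Every panel spans at least 1.5 log2 units and has its own axis. CCND2 is open in all 3 controls, CDK4 lies lower with IL-17A, and CDK6 and both CDKN1B probes lie higher without overlap.

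Of the 8 tested members, 1 passed the adjusted threshold (CDK4, lower), against 7.86% of all genes, and 2 had an unadjusted p under 0.05 (CDK4 and CDK6), against 31.7% of all genes. None of the 8 passed a fold change of 1.5 with p under 0.05, which 1.92% of all genes did. These are the study's filtering thresholds, and its methods also name an FDR under 0.05. In 2 of the 8 the groups did not overlap (CDK6 higher, CDK4 lower), against 40.6% of all genes. The median difference of the 8 was 0.04, with 5 higher and 3 lower, and the differences ran from -0.30 to 0.21.

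**Figure D4:**
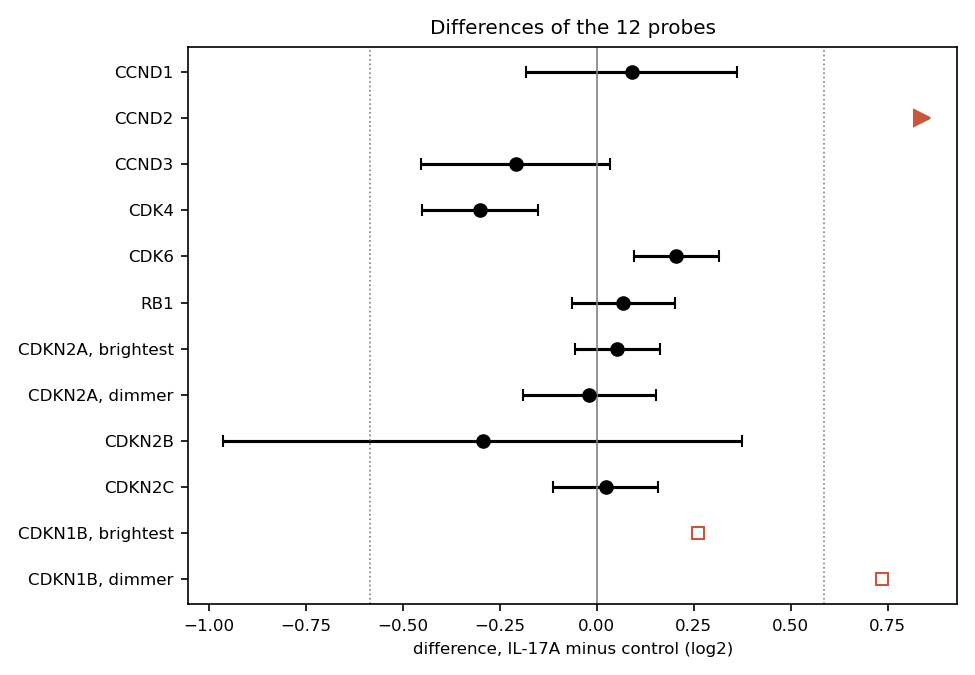
Difference between IL-17A and control for each probe on the log2 scale. Black points with bars are tested members with their 95% interval from limma, open squares are the CDKN1B probes, described without a test, the arrowhead is the CCND2 difference of 0.84 computed against the lowest signal well above background (0.63 in the authors' table and 0.13 with normexp), and dotted lines mark a fold change of 1.5 either way. The interval of CDK4 lies below 0 and that of CDK6 above it, while those of the other tested probes span 0.

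The wider pathway around the members was covered by 57 genes in 6 lists, of which 56 were tested. Of these 5 passed the adjusted threshold (8.93%, near the 7.86% of all genes), 2 higher and 3 lower, and none passed a fold change of 1.5. The median difference was -0.04, with 22 genes higher and 34 lower. Without control replicate 3 the count was 3, and without any other array it was 0. With the scan as a block it was also 0.

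Among the other CDK inhibitors CDKN2D rose by 0.28 (10.65 ± 0.03 with IL-17A, 10.37 ± 0.04 in controls, adjusted p = 0.0328), and it was the 1 of 3 to pass. CDKN2D encodes p19, the fourth INK4 protein. CDKN1A, which encodes p21, differed by 0.24 (adjusted p = 0.156) and CDKN1C, which encodes p57, by 0.20 (adjusted p = 0.169). Of the genes that act on the next step, cyclin E with CDK2, 1 of 5 passed. CCNE2, which encodes cyclin E2, fell by 0.27 (8.45 ± 0.05 with IL-17A, 8.71 ± 0.08 in controls, adjusted p = 0.0482). CCNE1, the brightest of this list, differed by -0.16 (adjusted p = 0.0735) and CDC25A, the phosphatase that activates CDK2, by -0.18 (adjusted p = 0.0975).

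Among 16 other pocket protein, E2F and DP genes, 9 were higher and 7 lower with IL-17A. The adjusted threshold was passed by 1 higher and 1 lower gene. TFDP1, the main partner subunit of E2F factors, fell by 0.28 (11.35 ± 0.01 with IL-17A, 11.64 ± 0.03 in controls, adjusted p = 0.0309). LIN54, the DNA-binding subunit of the DREAM complex, rose by 0.23 (10.13 ± 0.03 with IL-17A, 9.90 ± 0.02 in controls, adjusted p = 0.0349). TFDP2, the other DP subunit, differed by 0.26 (adjusted p = 0.0547), opposite in sign to TFDP1. E2F2, the brightest gene of the list, differed by -0.08 (adjusted p = 0.324).

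Of the 18 replication genes that E2F factors regulate, 1 passed. PCNA, the sliding clamp of DNA polymerase, fell by 0.25 (12.57 ± 0.01 with IL-17A, 12.83 ± 0.04 in controls, adjusted p = 0.0328). MCM7, a helicase subunit and the brightest of the list, differed by -0.14 (adjusted p = 0.0739) and MYBL2, which works with the DREAM components, by -0.32 (adjusted p = 0.0803). The list had 3 genes higher and 15 lower, with a median of -0.08.

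The remaining lists had no gene past the threshold. All 3 subunits of the CDK-activating kinase differed little, by 0.11 for CDK7, 0.09 for MNAT1 and 0.01 for CCNH (adjusted p = 0.167, 0.257 and 0.929). In the list of 11 genes on the turnover of D-type cyclins and p27, CKS1B, which helps SCF recognise p27, differed by 0.10 (adjusted p = 0.168). SKP1 and RBX1, both subunits of SCF ligases, differed by -0.07 and -0.06 (adjusted p = 0.213 and 0.369).

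**Figure D5:**
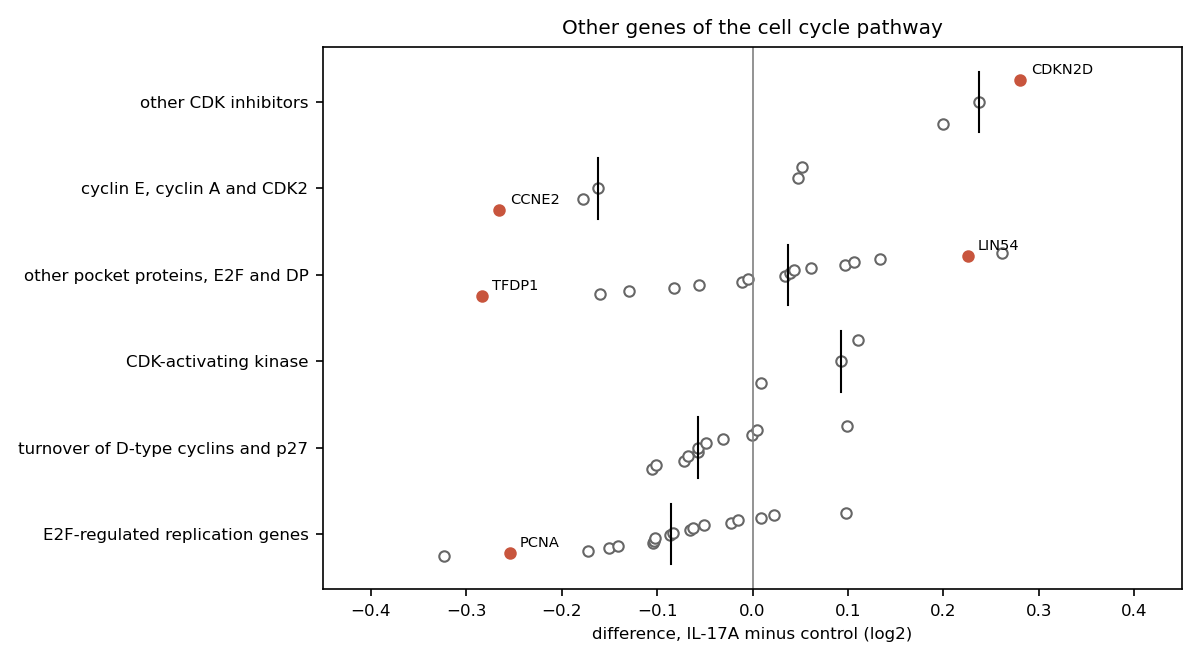
Difference between IL-17A and control on the log2 scale for 56 pathway genes in 6 lists (points, filled and named at an adjusted p under 0.05; vertical bars mark each list's median; the vertical offset only separates points). CDKN2D and LIN54 lie to the right of 0, and CCNE2, TFDP1 and PCNA to the left.

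The genes whose signal followed CCND2 most closely over the 6 arrays were GLT8D1 (Pearson r = 0.999), ZNF217, a zinc finger factor (0.999), and EXD3 (0.998). Those closest to CCND3 were LSP1, a leukocyte actin-binding protein (r = 0.998), PARD3, a polarity protein (0.995), and MLXIP, a glucose-responsive transcription factor (0.995). These r values describe 6 arrays that share 2 groups, and the order for CCND2 follows the group difference it was chosen for, since no control value of its probe was well above background. Of the tested probes with a gene name, those of the gene itself left out, 1575 reached r above 0.9 with CCND2 and 771 with CCND3.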

How the data were processed

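RNA of 6 SU-DHL-2 samples was labelled with Cy3 and hybridised to Agilent Whole Human Genome arrays. The authors deposited, per array, the Feature Extraction 11.0.1.1 output, with a background-subtracted intensity per spot, its error, the spot and local background brightness and quality flags of 0 or 1. They also deposited a table of quantile normalised log2 values, used here as an alternative. Control spots and spots marked non-uniform or as population outliers (305 to 457 per array) were left out. Intensities below 1 were set to 1, replicate spots were averaged per probe as log2 values, and arrays were quantile normalised, as the study did. A probe was tested when positive, significant and well above background on at least 3 of 6 arrays, which left 23936 of 34127 probes.

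The groups were compared with limma 3.58.1 in R 4.3.3 by a two-sided test with no covariate, and p-values were adjusted (Benjamini-Hochberg) over every probe tested. Intervals are from the same fit. A gene was represented by its brightest tested probe, and probes were named through their RefSeq accession (GRCh38.p14). For groups of 3 and 3 arrays, the smallest p of an exact permutation test is 0.1. The number of arrays limits the precision. The procedure was tested on simulated data. The members and gene lists were chosen with earlier results of these data known, and markers and pathway lists are from general knowledge. Named were all members, per pathway list the 3 genes of lowest p and the brightest, all 9p21 and B-cell genes (1 of these is not reported here), the brightest gene of each other marker list, and the 3 genes most like CCND2 and CCND3. CD3E and CD2 were named besides these, after their values were seen. The scan was read from the headers. Samples with the same replicate number did not deviate together (r = -0.086, -0.0024 and -0.047), so the numbers were not taken as pairs. Alternatives were other normalisations (75th percentile or none), normexp with an offset of 50, the authors' log2 table, stricter or no detection filter, a floor at the lowest signal well above background, an intensity trend in limma, the t-test of the methods, the replicate number or scan as a block, the mean over probes, population outliers kept (chosen after seeing the data), and leaving out each array.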

Additional observations from a re-analysis of the deposited data

How the results depend on the processing

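Of the 8 tested members, 1 passed the adjusted threshold. The count was 0 without normalisation between arrays, without the detection filter, with the methods' t-test, with the scan as a block, within the scan that held both groups and without any 1 array (range 0 to 0). It was 2, with CDK6 added, for probes detected on all 6 arrays, with an intensity trend and with the mean over probes. With normexp it was 1, but CDK6 passed (adjusted p = 0.0293) in place of CDK4 (0.0815). No alternative took a tested member past a fold change of 1.5, and CDK4 stayed lower (-0.34 to -0.22) and CDK6 higher (0.18 to 0.23) under all of them, leaving out each array included. Of the pathway genes 5 passed, against 0 without normalisation, with the scan as a block and within the scan, 9 with normexp, 10 with the intensity trend and 0 to 3 without 1 array. Over all genes the count of 1159 fell to 28 without normalisation, 31 with the scan as a block, 17 within the scan and 1 to 604 without 1 array, and rose to 2615 with the intensity trend. The measured CCND2 difference was 0.13 with normexp, 0.63 in the authors' table, 0.84 with the floor at the lowest signal well above background and 2.61 to 2.84 without 1 array, and the probe was not tested when detection on all 6 arrays was asked for. The signal near background limits this value. The dimmer CDKN1B probe differed by 0.21 with normexp. CDKN1B was 0.50 as the mean over probes and 0.21 to 0.32 without 1 array. Without 1 array CCND1 ranged from 0.022 to 0.20, CCND3 from -0.28 to -0.12, RB1 from 0.034 to 0.11 and CDKN2B from -0.52 to -0.094, and with the scan as a block they were 0.15, -0.06, 0.038 and -0.49. With normexp CCND1 was 0.012 and CDKN2B -0.069. Signs turned for CCND1 (-0.00073) and the brighter CDKN2A probe (-0.0065) with the 75th percentile, for the dimmer CDKN2A probe without normalisation (0.025), with the scan as a block or within it (0.067), without IL-17A replicate 2 (0.026) and without control replicate 1 (0.023), and for CDKN2C without IL-17A replicate 1 (-0.024). Without 1 array the dimmer CDKN2A probe ranged from -0.067 to 0.026 and CDKN2C from -0.024 to 0.059. The cause of these changes was not tested.

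With the replicate number as a block, 0 of the 8 members, 0 pathway genes and 3 genes in all passed. The samples share only a number, so this fit is not a paired analysis.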
